A study of Mus musculus with 6 samples.

Results

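The cytosolic ribosomal protein genes were followed by RNA-Seq in MPCs. MPCs are cultured mouse podocytes, kidney cells of the glomerular filter, made conditionally immortal so that they divide at a low temperature with interferon gamma. Members were all rows of the deposited table with a single gene symbol that starts with Rpl or Rps and a digit, or Rpsa, Rplp0, Rplp1 or Rplp2, without pseudogene symbols (-ps) and S6 kinases, and with a mean of at least 1 FPKM (fragments per kilobase of transcript, scaled to the mapped fragments of the library). The name part of this rule matched 82 of the 24469 loci, and 78 of these passed the limit of 1 FPKM. All cells had been differentiated for 10 days at 37 °C without interferon gamma, starved of serum for 12 h and then held in high glucose (HG, 25 mM) for 12 h. There were 3 groups of 2 libraries, namely HG alone, HG after 1 h of pretreatment with 100 ng/mL rFGF1WT, the wild-type recombinant growth factor FGF1, and HG after the same pretreatment with rFGF1ΔHBS, a partial agonist whose mutations weaken the receptor dimerization that heparan sulfate assists. All libraries come from 1 cell line at passages 10 to 15, and nothing in the sources used here says whether replicates were separate cultures, so p-values measure only the spread between these libraries.

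Ribosomal proteins clothe the ribosomal RNA of the small (40S) and large (60S) subunits and are needed in near-equal numbers. Their mRNAs are among the most abundant of a growing cell. Most begin with a run of pyrimidines directly at the cap, the TOP motif, through which mTORC1 and its partner Larp1 set how much of the mRNA is translated, often without a change in its amount. FGF receptors signal through ERK and through PI3K, AKT and mTORC1, and S6 kinase, which mTORC1 activates, phosphorylates the 40S protein Rps6. RNA-Seq of total poly(A) RNA reads mRNA amounts and not translation.

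None of the 78 members passed the threshold in any comparison. After rFGF1WT, 0 of 78 had a Benjamini-Hochberg adjusted p under 0.05 by limma against HG, beside 6.19% of all 10562 loci tested (3.26% higher and 2.94% lower). After rFGF1ΔHBS the count was also 0, beside 6.26% of all loci (3.37% higher and 2.89% lower), and between the pretreatments it was 0, beside 0.549% (0.294% higher and 0.256% lower). With a change of at least 2-fold also asked for, 0 members passed, and 1.01%, 0.899% and 0.35% of all loci passed in the 3 comparisons. At an unadjusted p under 0.05, 10 members passed for rFGF1WT against HG, 8 for rFGF1ΔHBS against HG and 7 between the pretreatments, which is 12.8%, 10.3% and 8.97% of the members beside 24.8%, 24.9% and 4.87% of all loci. Of the 10 members for rFGF1WT, 4 were higher and 6 lower, beside 10.8% and 14.0% of all loci. The 8 for rFGF1ΔHBS were all lower, beside 10.9% of all loci higher and 14.0% lower, and so were the 7 between the pretreatments, beside 2.45% higher and 2.41% lower. The median log2 fold change of the members, on the log2(FPKM + 1) scale, was −0.035 for rFGF1WT against HG, −0.112 for rFGF1ΔHBS against HG and −0.079 for rFGF1ΔHBS against rFGF1WT. The medians of all loci were −0.040, −0.036 and 0.005. For 74 of the 78 members (94.9%) the 95% interval of the log2 fold change lay inside a 2-fold change in either direction, in each of the 3 comparisons; the shares of all loci were 79.5%, 79.6% and 82.4%.

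**Figure D1:**
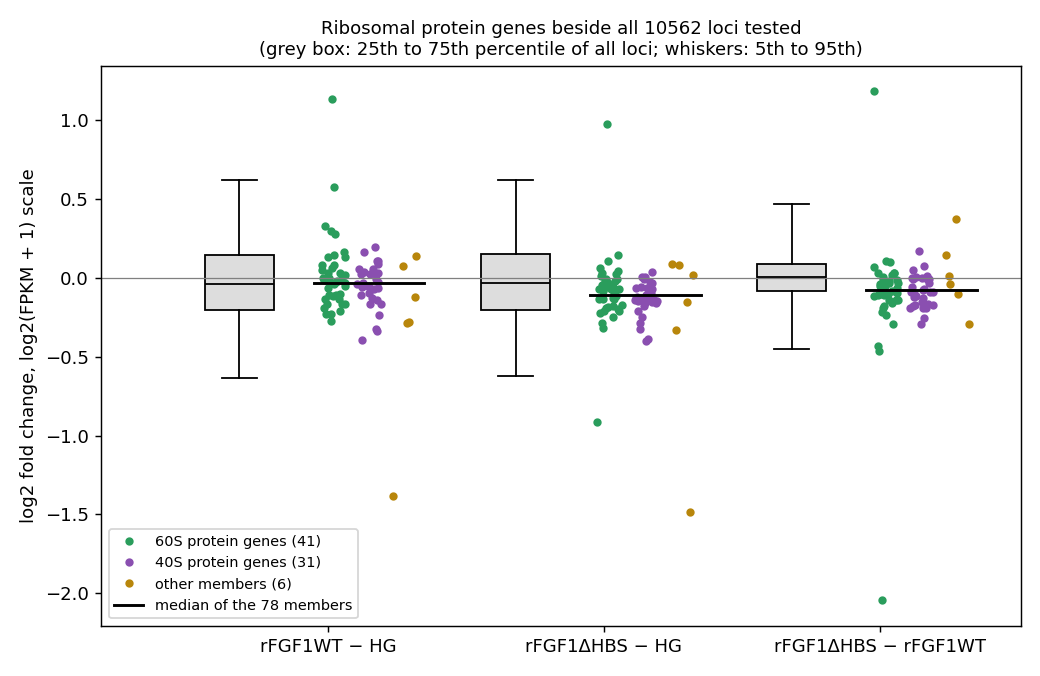
Log2 fold change (y axis, log2(FPKM + 1) scale) of each member in the 3 comparisons, with the 41 genes of 60S proteins, the 31 of 40S proteins and the 6 other members as points, the median of all members as a black line, and the interquartile range of all loci tested as grey boxes. Nearly all members lie within the whiskers of all loci (percentiles 5 to 95), with medians of −0.035, −0.112 and −0.079, and the few far points are Rplp1, Rpl41 and Rpl6l.

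The members cover most of the ribosome. The 41 members of the 60S subunit and 31 of the 40S subunit make 72 of the 80 canonical ribosomal proteins. The other 6 were Rpl22l1, Rpl7l1, Rps27l, Rps27rt and Rpl6l, which are paralogs or copies, and Rps19bp1, which is not a ribosomal protein but binds Rps19. Among the canonical genes outside the rule were Fau and Rack1, whose symbols the rule does not match, and Rpl4, Rpl13a, Rpl21, Rpl24 and Rpl27, whose loci carry several names. The 4 rows just below the limit were Rpl37rt, with a mean of 0.991 FPKM, and Rpl39l, Rpl3l and Rps4l, with 0.0705, 0.0242 and 0.0152 FPKM. Just above the limit stood Rpl29, Rpl26, Rpl22l1, Rps29 and Rpl6l, with 1.67, 2.63, 3.43, 11.5 and 12.3 FPKM.

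The podocyte identity of the libraries was incomplete by its markers. Of 14 podocyte markers 8 had a mean of at least 1 FPKM, while Nphs1 stood at 0.781 FPKM and Wt1 at 0.0376. Endothelial markers reached that level in 0 of 5 genes, macrophage and leukocyte markers in 2 of 5, renal tubule markers in 2 of 5 and mesangial markers in 3 of 5. The summed level of the podocyte markers was 228 to 232 FPKM in HG, 316 to 321 with rFGF1WT and 301 to 314 with rFGF1ΔHBS. The summed level of the tubule markers was 61.6 to 73.3 FPKM in HG, 44.1 to 47.6 with rFGF1WT and 40.5 to 49.7 with rFGF1ΔHBS. The sums hide unlike values: Nes had 41.8 to 43.2 FPKM in HG and 78.7 to 84.3 in the pretreated libraries, while Synpo had 9.58 to 10.2 and 4.01 to 6.83. The sums ran from 43.4 to 48.2 FPKM for mesangial markers, from 60.9 to 71.1 for macrophage and leukocyte markers, of which Cd68 shares a locus with Eif4a1, and from 0.0450 to 0.167 for endothelial markers. Within the first of these lists Pdgfrb had 31.8 to 32.7 FPKM in HG and 26.1 to 27.5 after pretreatment, and Acta2 10.8 to 12.7 and 14.1 to 17.7. Within the second Csf1r had 9.56 to 10.7 FPKM in HG and 3.21 to 3.93 after pretreatment. The part of these lists in the results below was not tested, and in bulk RNA fewer cells of a type and less RNA per cell cannot be told apart.

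Levels of the members spanned more than 2 orders of magnitude on the FPKM scale, which is per transcript length. The median member had a mean of 61.4 FPKM, beside 7.91 for all tested loci, and 75 of 78 members were above that level. There were 60 members between 20 and 200 FPKM, 7 above and 11 below. Rplp0, the scaffold of the stalk that recruits elongation factors, was highest in each library, with 865 and 781 FPKM in HG, 694 and 666 with rFGF1WT and 618 and 734 with rFGF1ΔHBS. Rpsa, the 40S protein also known as the laminin receptor, followed with 393 and 394 FPKM in HG, 443 and 406 with rFGF1WT and 362 and 392 with rFGF1ΔHBS. Rps3a1, a 40S protein, had 316 and 332, 349 and 316, and 327 and 339 FPKM in the same order. These levels of Rps3a1 overlapped between all groups. At the bottom, Rpl29 had 1.57 and 0.896 FPKM in HG, 2.04 and 2.55 with rFGF1WT and 1.04 and 1.91 with rFGF1ΔHBS.

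The 3 lowest members, Rpl29, Rpl26 and Rpl22l1, were also the 3 members listed under an Ensembl gene identifier; the other 75 carried identifiers of assembled loci. Over all tested loci the median level was 2.28 FPKM for Ensembl identifiers and 10.0 for assembled loci, so a low value of these members cannot be told apart from how their row was made. Levels also varied with the number of transcripts a row lists. The 6 members with 1 transcript had a median of 138 FPKM and the 72 members with more had a median of 56.0, and Spearman's rho over the 78 members was −0.24, given as a description. Rps24, with the most transcripts listed (16), stood at a mean of 35.5 FPKM.

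**Figure D2:**
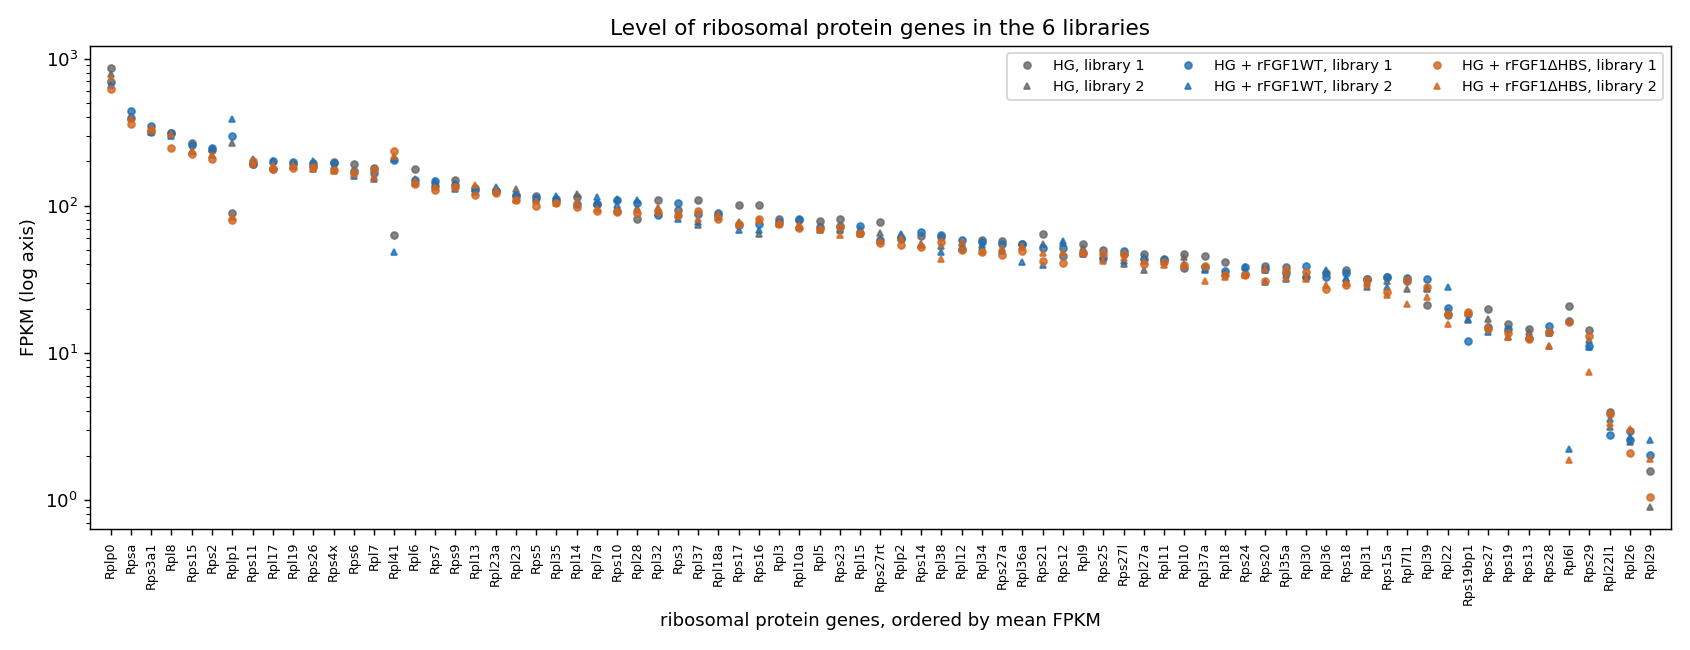
FPKM (log axis) of members in the 6 libraries, ordered by mean level; circles and triangles are the libraries 1 and 2 of each group. For most members the 6 points nearly coincide, from Rplp0 at a mean of 726 FPKM to Rpl29 at 1.67, while Rplp1, Rpl41 and Rpl6l split.

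As a share of all FPKM in a library, the members took 4.31% and 4.30% in HG, 4.27% and 4.09% with rFGF1WT, and 3.93% and 4.01% with rFGF1ΔHBS. Both rFGF1ΔHBS libraries were below the other 4. Without Rplp1 and Rpl41, whose replicates disagreed, the shares were 4.23% and 4.04%, 4.00% and 3.85%, and 3.75% and 3.85%, and the lower rFGF1WT library then stood level with the higher rFGF1ΔHBS library. With 2 libraries against 2, an exact permutation test cannot give a two-sided p below 0.333, and no test was run on these shares.

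The HG libraries differed from each other by about as much as the groups did. The median difference between HG library 2 and HG library 1 over the members was −0.117 on the log2 scale, with 24 of 78 members higher in library 2, beside a median of 0.006 over all loci. The corresponding difference was −0.067 between the rFGF1WT libraries and 0.024 between the rFGF1ΔHBS libraries. The median differences of the rFGF1ΔHBS libraries were −0.165 and −0.137 from HG library 1, and −0.056 and −0.049 from HG library 2. Those of the rFGF1WT libraries were −0.029 and −0.115 from HG library 1, and 0.045 and 0.006 from HG library 2. The rFGF1ΔHBS libraries differed by −0.108 and −0.087 from rFGF1WT library 1 and by −0.045 and −0.033 from rFGF1WT library 2. A gap of the members between the HG libraries was thus as wide as their median change after rFGF1ΔHBS.

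**Figure D3:**
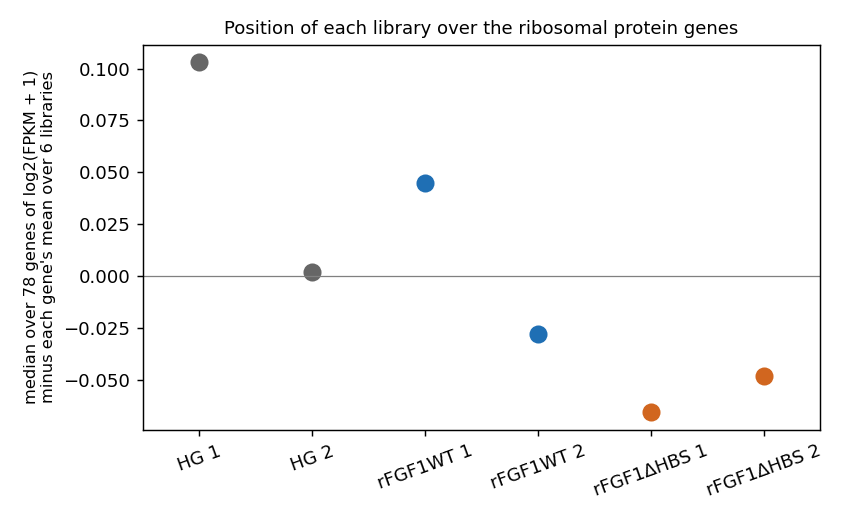
Each point is a library; the y axis is the median over the 78 members of log2(FPKM + 1) minus the gene's mean over all libraries. HG library 1 stands highest at 0.103, HG library 2 at 0.002 and the rFGF1WT libraries at 0.045 and −0.028, and both rFGF1ΔHBS libraries are lowest, at −0.066 and −0.048.

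Pretreatment with rFGF1WT was compared with HG alone to see how the full agonist moved these mRNAs. Of the members, 30 had a log2 fold change above 0 and 48 below, that is 38.5% above and 61.5% below, beside 43.7% and 56.2% of all loci. The sign of the median for rFGF1WT was not stable: it was −0.035 as fitted, 0.006 with median-ratio scaling of the libraries, 0.017 without HG library 1 and 0.005 without rFGF1WT library 2. Both rFGF1WT libraries stood above both HG libraries for 14 members (17.9%; 24.1% of all loci) and below them for 17 (21.8%; 34.1% of all loci). The lowest p belonged to Rps24, a 40S protein mutated in Diamond-Blackfan anaemia. Rps24 had 34.3 and 34.4 FPKM in HG, 38.6 and 38.6 with rFGF1WT and 33.6 and 33.7 with rFGF1ΔHBS. The groups did not overlap, and the replicates of Rps24 lay closer together than those of any other member, judged by the least alike pair of each. Its log2 fold change was 0.16 ± 0.04 (SE, n = 2 against 2), with an adjusted p of 0.106 by limma. A near-identical copy locus, Rps24-ps3 (99.0% identity), was listed at 3.88 and 0 FPKM in HG. With this copy added, Rps24 had 38.2 and 34.4 FPKM in HG and 41.4 and 41.6 with rFGF1WT. The rFGF1ΔHBS libraries, at 36.4 and 36.3 FPKM, then lay between the HG libraries.

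Rpl10, which sits at the subunit interface and joins the 60S subunit late, had 46.9 and 44.96 FPKM in HG, 37.5 and 40.4 with rFGF1WT and 39.7 and 38.6 with rFGF1ΔHBS. Both HG libraries were above the other 4, and the log2 difference of −0.23 ± 0.06 (SE) after rFGF1WT had an adjusted p of 0.108 by limma. The largest positive values were those of Rplp1 (1.13 ± 0.55, SE), Rpl29 (0.57 ± 0.25) and Rpl22 (0.33 ± 0.17), with limma adjusted p of 0.296, 0.259 and 0.331. With copies added to their member, Rpl29 turned to −0.00283. Rpl22, an RNA-binding 60S protein near the exit of the peptide tunnel, had 18.2 and 19.2 FPKM in HG, 20.2 and 28.0 with rFGF1WT and 18.3 and 15.8 with rFGF1ΔHBS. The 2 rFGF1WT libraries of Rpl22 differed more from each other than the lower of them did from HG. The largest negative values were those of Rpl6l (−1.38 ± 1.21, SE), Rps21 (−0.39 ± 0.16) and Rps27 (−0.34 ± 0.09), with limma adjusted p of 0.531, 0.236 and 0.126. Rps21, a small protein of the 40S subunit, had 64.4 and 55.0 FPKM in HG, 51.4 and 39.6 with rFGF1WT and 42.3 and 47.8 with rFGF1ΔHBS.

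Pretreatment with rFGF1ΔHBS was compared with HG alone in the same way. Here 14 members were above 0 and 64 below, 17.9% and 82.1%, beside 44.3% and 55.6% of all loci. Both rFGF1ΔHBS libraries were below both HG libraries for 34 members (43.6%; 32.9% of all loci) and above them for 2 (2.56%; 24.4% of all loci). The 2 members above were Rpl41 and Rps19bp1. The shift was small: leaving aside Rplp1, Rpl41 and Rpl6l, the log2 fold changes of the other 75 members ran from −0.40 to 0.14, and the median half-width of their 95% intervals was 0.24. The median moved from −0.112 to −0.058 when HG library 1 was left out and to −0.162 when HG library 2 was left out. Its size thus depended on which HG library was used, and it stayed below 0 with either.

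The lowest p of this comparison belonged to Rpl36, a small 60S protein. Rpl36 had 35.0 and 35.7 FPKM in HG, 32.8 and 36.7 with rFGF1WT and 27.3 and 29.1 with rFGF1ΔHBS. Both rFGF1ΔHBS libraries were below the other 4. The log2 fold change was −0.32 ± 0.08 (SE, n = 2 against 2), with an adjusted p of 0.0942 by limma. The other values furthest below 0 were those of Rpl6l (−1.48 ± 1.21, SE), Rplp1 (−0.91 ± 0.55) and Rps21 (−0.40 ± 0.16), with limma adjusted p of 0.504, 0.384 and 0.232. The values furthest above 0 were those of Rpl41 (0.97 ± 0.90, SE), Rpl29 (0.14 ± 0.25) and Rpl39 (0.11 ± 0.16), with limma adjusted p of 0.558, 0.767 and 0.719. The sign of Rpl29 and Rpl39 did not hold: Rpl29 was −0.0748 without HG library 2, −0.111 without rFGF1ΔHBS library 2 and −0.0979 with copies added, and Rpl39 was −0.0594 without HG library 1 and −0.00419 without rFGF1ΔHBS library 1. Rpl39, a short protein that lines the peptide tunnel, had 21.3 and 27.1 FPKM in HG, 31.9 and 27.6 with rFGF1WT and 28.1 and 23.9 with rFGF1ΔHBS.

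The pretreatments were then compared with each other at the same dose and times, since the proteins differ by the mutations that weaken receptor dimerization in rFGF1ΔHBS. Of the members 18 were higher with rFGF1ΔHBS and 60 lower, 23.1% and 76.9%, beside 51.9% and 48.0% of all loci. Both rFGF1ΔHBS libraries were below both rFGF1WT libraries for 31 members (39.7%; 16.1% of all loci) and above for 6 (7.69%; 18.4% of all loci). Rps24 again had the lowest p, with a log2 difference of −0.19 ± 0.04 (SE) and an adjusted p of 0.506 by limma. Rps7, a 40S protein that also binds Mdm2, had 137 and 139 FPKM in HG, 147 and 146 with rFGF1WT and 129 and 133 with rFGF1ΔHBS. The log2 difference of Rps7 between pretreatments was −0.16 ± 0.04 (SE), with an adjusted p of 0.668 by limma. The lowest values were those of Rplp1 (−2.04 ± 0.55, SE), Rpl22 (−0.46 ± 0.17) and Rpl29 (−0.43 ± 0.25), and the highest those of Rpl41 (1.18 ± 0.90), Rps19bp1 (0.37 ± 0.17) and Rps16 (0.17 ± 0.22). Their limma adjusted p ranged from 0.784 to 0.936. Rps19bp1 had 18.5 and 16.8 FPKM in HG, 12.1 and 17.0 with rFGF1WT and 19.0 and 18.7 with rFGF1ΔHBS, with rFGF1WT library 1 furthest below the rest.

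By subunit, the 41 genes of 60S proteins had median log2 fold changes of −0.018 for rFGF1WT against HG, −0.074 for rFGF1ΔHBS against HG and −0.071 between the pretreatments. The 31 genes of 40S proteins had −0.038, −0.132 and −0.089. For rFGF1ΔHBS against HG, 33 of 41 genes of 60S proteins and 28 of 31 of 40S proteins had a value below 0. Past the threshold were 0 of either, beside 6.26% of all loci. The difference between the subunits was not tested. A list of genes mutated in Diamond-Blackfan anaemia, an inherited failure of red cell production, held 11 members. With rFGF1WT 6 were above 0 and 5 below, with rFGF1ΔHBS 0 above and 11 below, and between the pretreatments 2 above and 9 below. The list is partial and leaves out Rps28 and Rpl31, whose HG and rFGF1ΔHBS libraries overlapped. Rps28 had 14.0 and 11.1 FPKM in HG and 14.0 and 11.2 with rFGF1ΔHBS. Rpl31 had 31.8 and 28.1 FPKM in HG and 31.1 and 29.2 with rFGF1ΔHBS. The 7 members on a list of proteins at the peptide exit tunnel were above 0 in 7 cases with rFGF1WT, with a median of 0.061, in 3 with rFGF1ΔHBS, with a median of −0.023, and in 0 between the pretreatments, with a median of −0.117. The list does not hold every protein there: Rpl26, also near the exit, was at −0.04 after rFGF1WT. The 6 members of the decoding site and mRNA channel were above 0 in 3 cases, 0 cases and 0 cases. The first 2 of these comparisons share the HG libraries and the last shares both pretreated groups, so their counts are not independent of each other.

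The P stalk, formed by Rplp0 and dimers of Rplp1 and Rplp2, brings elongation factors to the ribosome. Its 3 genes had unlike values. Rplp1 had 89.2 and 266 FPKM in HG, 296 and 388 with rFGF1WT, and 79.5 and 83.4 with rFGF1ΔHBS. The rFGF1WT libraries were the highest, the rFGF1ΔHBS libraries the lowest, and the HG libraries lay 2.98-fold apart, 1 near each. Rplp2 had 60.5 and 63.6, 59.4 and 64.5, and 54.3 and 60.7 FPKM in the same order, and its groups overlapped in each comparison. Both HG libraries of Rplp0 were above the other 4, and its log2 fold changes were −0.27 ± 0.10 and −0.29 ± 0.10 (SE) after rFGF1WT and rFGF1ΔHBS, with limma adjusted p of 0.208 and 0.192. The 95% interval for Rplp1 between pretreatments ran from −3.51 to −0.57, that for Rplp2 from −0.32 to 0.11.

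Rpl41 and Rpl6l also split between replicates. Rpl41, the shortest ribosomal protein, had 63.4 and 208 FPKM in HG, 203 and 48.3 with rFGF1WT, and 237 and 217 with rFGF1ΔHBS, so that 1 library of each of the first 2 groups was low. Rpl6l, annotated as a processed pseudogene that is 98.7% identical to Rpl6 over 871 aligned bases, had 20.8 and 16.6 FPKM in HG, 16.4 and 2.23 with rFGF1WT, and 16.1 and 1.86 with rFGF1ΔHBS. Rpl6 itself had 178 and 152, 151 and 143, and 141 and 147 FPKM. Replicates were at least 2-fold apart for these 3 members only, at least 1.5-fold for 6 and at least 1.2-fold for 27 of 78. The median coefficient of variation within groups was 5.21%.

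**Figure D4:**
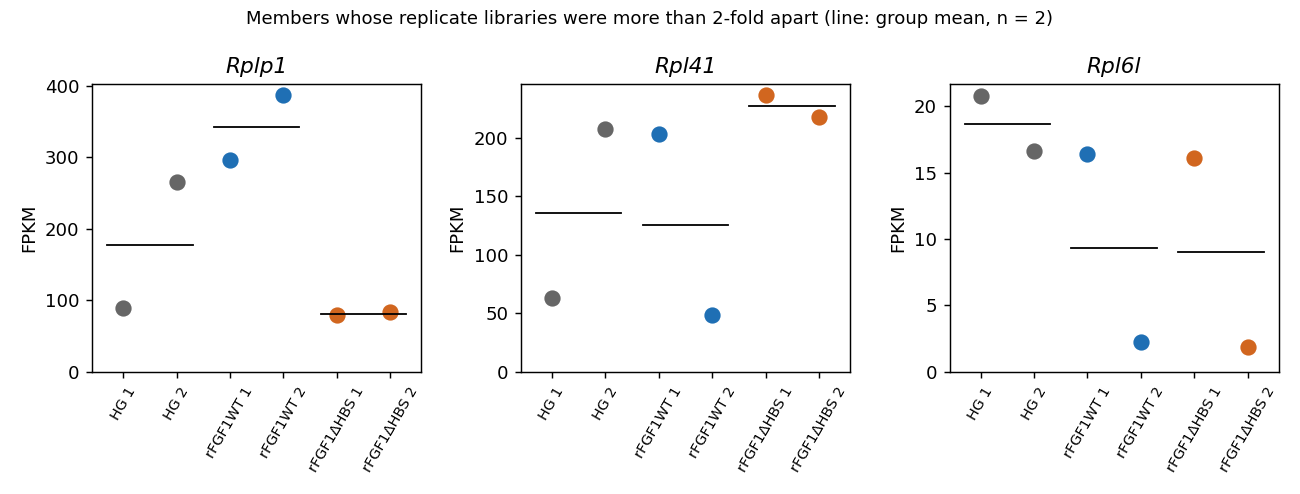
FPKM of Rplp1, Rpl41 and Rpl6l in each library (points) with the mean of each group (line, n = 2). Rplp1 stands between 79.5 and 89.2 FPKM in 3 libraries and between 266 and 388 in the other 3, Rpl41 at 48.3 and 63.4 in 2 libraries and from 203 to 237 in 4, and Rpl6l at 1.86 and 2.23 in 2 and from 16.1 to 20.8 in 4.

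Rpl5 and Rpl11, which with 5S RNA form a particle that binds Mdm2 when ribosome assembly stalls, and Rpl23 and Rpl26, which bind Mdm2 too, did not pass the test. Rpl5 had 78.5 and 72.4 FPKM in HG, 71.9 and 68.0 with rFGF1WT and 69.7 and 69.4 with rFGF1ΔHBS. Rpl11 had 42.7 and 43.6, 43.8 and 41.5, and 41.5 and 39.6 FPKM in the same order. Rpl23 had 119 and 129, 117 and 112, and 109 and 110 FPKM. The 4 genes were below 0 in each comparison, with medians of −0.071, −0.102 and −0.050, and the lowest adjusted p was that of Rpl23 after rFGF1ΔHBS, at 0.157 by limma. Rpl26 stood at 2.09 to 3.02 FPKM.

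Rps6, the S6 kinase substrate, had 192 and 169 FPKM in HG, 173 and 160.4 with rFGF1WT and 169.5 and 165 with rFGF1ΔHBS, and its groups overlapped in each comparison. Its log2 fold changes were −0.11 ± 0.08 (SE) after rFGF1WT and −0.11 ± 0.08 after rFGF1ΔHBS, with limma adjusted p of 0.455 and 0.476. The 95% interval of the difference between pretreatments ran from −0.21 to 0.22.

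Among paralogs, Rps27 and Rps27rt share nearly all of their sequence. Rps27rt (chr9:114982366-114982739, minus strand, GRCm38) is a copy without introns whose transcript matches that of Rps27 (chr3:90212522-90213651, minus strand) at 100% of 341 aligned bases, while Rps27l (chr9:66946086-66949516, plus strand), an older paralog, matches at 76.4% of 254. The first 60 coding bases are shown to make this visible, with bases that differ from Rps27 in capitals, 0 in Rps27rt and 18 in Rps27l.
Rps27: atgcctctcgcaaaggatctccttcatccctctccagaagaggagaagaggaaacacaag
Rps27rt: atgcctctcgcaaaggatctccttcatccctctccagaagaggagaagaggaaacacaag
Rps27l: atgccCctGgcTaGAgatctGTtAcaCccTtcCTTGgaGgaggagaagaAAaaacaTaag

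Rps27rt had 77.6 and 65.7 FPKM in HG, 58.6 and 58.1 with rFGF1WT and 56.0 and 57.3 with rFGF1ΔHBS, and Rps27 had 19.8 and 17.1, 14.9 and 13.8, and 14.5 and 15.3 FPKM. Both HG libraries were above the other 4 for each of these loci. The log2 fold changes of Rps27rt were −0.29 ± 0.09 and −0.33 ± 0.09 (SE) after rFGF1WT and rFGF1ΔHBS, those of Rps27 −0.34 ± 0.09 and −0.29 ± 0.09, with limma adjusted p from 0.118 to 0.161 over the 4 values. How fragments that match both rows were assigned is not given in the sources used here, and whether the rows are independent of each other was not tested. Rps27l, a p53 target that can take the place of Rps27, had 46.7 and 40.04 FPKM in HG, 49.0 and 42.4 with rFGF1WT and 47.3 and 44.4 with rFGF1ΔHBS, and its groups overlapped. Rpl22l1, the paralog that Rpl22 represses, had 3.95 and 3.13, 2.76 and 3.57, and 3.84 and 3.33 FPKM, beside Rpl22 at 15.8 to 28.0. Rpl7l1, a nucleolar relative of Rpl7, had 30.7 and 27.4, 32.4 and 31.8, and 31.4 and 21.5 FPKM. Of the parent genes, Rpl3 (81.8 and 75.1, 77.6 and 77.5, 74.7 and 76.1 FPKM) and Rpl7 (181 and 152, 167 and 158, 174 and 157 FPKM) differed between groups by less than between the HG libraries. Rps4x had 198 and 187, 195 and 175, and 176 and 172 FPKM, and Rpl36a 54.6 and 52.7, 54.7 and 41.6, and 49.5 and 53.5 FPKM.

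Copies of the members were common in the table, and some switched between libraries. Transcripts of 93 other loci with at least 1 FPKM in a library were at least 90% identical to a member's mRNA over at least 70% of their own length, and these were copies of 45 members. Loci that carry several names were left out of this count and are not among the copies below. Of the 72 with a mean of at least 1 FPKM, 40 were at 0 in at least 1 library, while 0 of the 78 members were. Of the 21 copies with a mean of at least 20 FPKM, 13 were above 0.5 FPKM in all 6 libraries and 8 were not. Rps12-ps3 (chr19:59322290-59322783, plus strand, GRCm38), 100% identical over 494 bases to Rps12 (chr10:23785183-23787275, minus strand), is the strongest example, and their first 60 coding bases are the same in each position.
Rps12: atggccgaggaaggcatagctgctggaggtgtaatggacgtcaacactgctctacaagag
Rps12-ps3: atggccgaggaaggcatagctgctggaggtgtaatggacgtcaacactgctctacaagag

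Rps12-ps3 was listed at 0 in both HG libraries, at 519 and 591 FPKM with rFGF1WT, and at 409 and 0 with rFGF1ΔHBS. Rps12 itself, a 40S protein near the beak of the subunit, stayed at 40.7 to 57.8 FPKM in all 6. Rpl14-ps1 was listed at 177 and 0 FPKM in HG, 0 and 0.438 with rFGF1WT and 157 and 162 with rFGF1ΔHBS, while Rpl14 stayed at 97.7 to 120.1. Rpl5-ps1 was listed at 0 and 131, 123 and 0, and 0 and 126 FPKM in the same order, with Rpl5 at 68.0 to 78.5. In these copies presence and absence divided replicates of a group.

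Gm15710, a copy 99.8% identical to Rpl13, followed the groups. It was listed at 95.6 and 98.0 FPKM in HG, 0 and 0 with rFGF1WT and 77.6 and 80.5 with rFGF1ΔHBS. Rpl13 itself, a 60S protein, had 133 and 130, 129 and 123, and 118 and 137 FPKM, with log2 fold changes against HG of −0.06 ± 0.08 and −0.05 ± 0.08 (SE) and limma adjusted p of 0.682 and 0.780. When the FPKM of copies were added to those of their member, an alternative chosen after seeing the data, Rpl13 was the 1 member called, with a log2 fold change of −0.74 ± 0.07 (SE) for rFGF1WT against HG and an adjusted p of 0.0160 by limma, and that call rests on Gm15710.

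For other members a copy held more than the member did. Gm14036 (chr2:134803949-134804428, plus strand, GRCm38), a processed pseudogene 99.4% identical to Rpl29 (chr9:106429454-106431568, plus strand), had 54.2 to 61.2 FPKM where Rpl29 had 0.896 to 2.55. Their first 60 aligned coding bases do not differ.
Rpl29: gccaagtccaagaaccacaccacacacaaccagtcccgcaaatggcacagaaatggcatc
Gm14036: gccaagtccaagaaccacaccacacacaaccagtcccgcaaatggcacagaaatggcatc

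Gm10260, 99.1% identical to Rps18, had 141 to 174 FPKM where Rps18 had 29.1 to 36.8. Gm10275, 100% identical to Rpl12 over its aligned bases, had 154 to 179 FPKM where Rpl12 had 50.4 to 58.1. The summed level of the copies was 1620 and 1460 FPKM in HG, 1858 and 1700 with rFGF1WT and 1740 and 1530 with rFGF1ΔHBS, beside 7827 and 7731, 7901 and 7492, and 7070 and 7307 for the members. What part of a copy's FPKM came from the member's own mRNA was not tested. The 33 members without such a copy had median log2 fold changes of −0.036, −0.129 and −0.090 in the 3 comparisons, and the 45 with copies −0.018, −0.089 and −0.068. Members were not counted as copies of each other, so the 33 include Rps27, Rps27rt and Rpl6l, which have near-identical loci among the members.

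**Figure D5:**
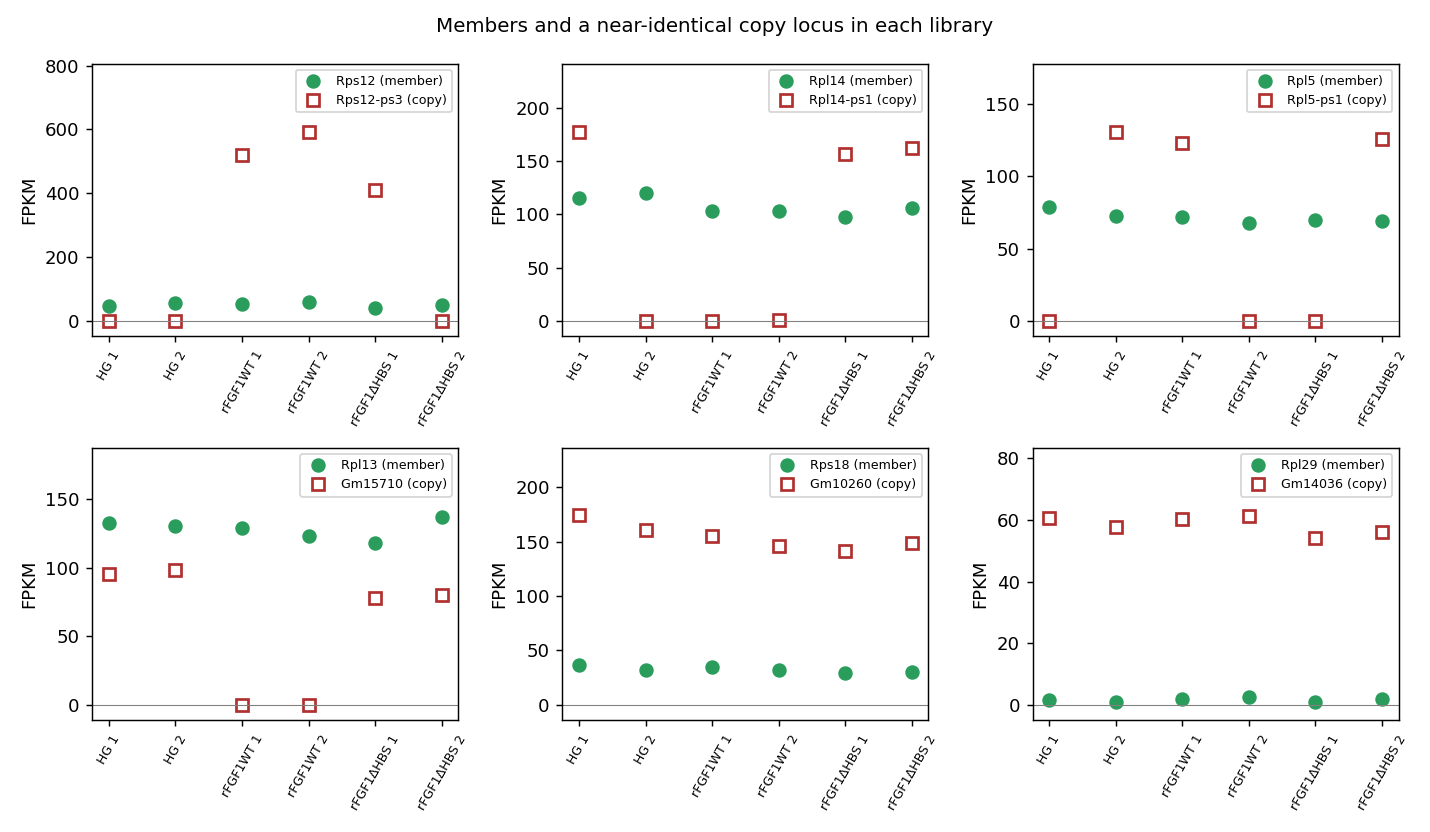
FPKM in each library of 6 members (filled circles) and of a near-identical copy locus (open squares). Rps12-ps3, Rpl14-ps1 and Rpl5-ps1 are at or near 0 in 3 libraries and from 123 to 591 FPKM in the other 3, Gm15710 is at 0 in the 2 rFGF1WT libraries, and Gm10260 and Gm14036 stand above Rps18 and Rpl29 in all 6.

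What the members share at the start of their genes was read from RefSeq promoters (GRCm38.p6, 250 bases before to 50 after the annotated start), in which 58 members had 69 entries. A pyrimidine run of at least 6 bases that opens with C within 10 bases of the start was present in 34 of the 69 (49.3%), beside 19.2% of all 32851 promoters and 19.3% of those of other tested loci. The motif CCGGAAG, the core that factors of the ETS family bind, searched like the next 3 on both strands, stood in 37.7%, beside 8.86% of all promoters and 18.8% of other tested loci. AAGATGGC, which YY1 binds and which can share its first 3 bases with CCGGAAG, was in 10.1%, beside 2.75% and 4.79%. CACGTG, bound by Myc, was in 10.1%, beside 7.15% and 10.2%, and GGGCGG, bound by Sp1, in 62.3%, beside 35.7% and 66.0%. TATAAA on the gene's strand between 40 and 15 bases before the start was in 1.45%, beside 1.99% and 0.951%. A match is a description and no site. The pyrimidine run is shown, in capitals, in the 30 bases around the annotated start for 6 members described above, with the gene strand written 5′ to 3′.
Rps6, chr4:86857353-86857382: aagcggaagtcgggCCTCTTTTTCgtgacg
Rps24, chr14:24490663-24490692: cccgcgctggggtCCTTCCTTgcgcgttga
Rps27, chr3:90213634-90213663: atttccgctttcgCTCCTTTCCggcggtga
Rps27rt, chr9:114982725-114982754: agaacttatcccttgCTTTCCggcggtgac
Rps21, chr2:180257364-180257393: taccgaggacccgCCCTCCTgcccaatagt
Rpl14, chr9:120571502-120571531: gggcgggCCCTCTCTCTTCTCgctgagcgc

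In these 6 windows the run holds 6 to 14 pyrimidines and crosses or begins at the annotated start. In Rps12 the run, of 11 pyrimidines, begins later, at base 9 counted from the start. The motif CCGGAAG is shown for Rps7, where it lies on the opposite strand and so reads CTTCCGG, in capitals, beginning 14 bases before the start. It is not always so near: in Rpsa and Rpl15 it begins at −188 and −157 relative to the start.
Rps7, chr12:28635949-28635978: tttcagaagagCTTCCGGtttccacccacc

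Other genes of the translation apparatus were taken from fixed lists. The 15 tested other TOP mRNAs encode elongation factors, eIF3 subunits, Pabpc1, Npm1 and Tpt1 among others. Of these, 0 passed the threshold in each comparison, beside 6.19%, 6.26% and 0.549% of all loci. For so short a list a count of 0 is near those shares. Their medians were 0.027 for rFGF1WT against HG, −0.073 for rFGF1ΔHBS against HG and −0.052 between the pretreatments. Fau, which makes the 40S protein eS30, had 175 and 167 FPKM in HG, 149 and 141 with rFGF1WT and 139 and 167 with rFGF1ΔHBS. Rack1, a scaffold on the 40S head, had 106 and 109, 120 and 108, and 99.4 and 89.9 FPKM in the same order. The 68 tested mitochondrial ribosomal protein genes, which encode another ribosome, had medians of 0.015, 0.014 and −0.037. After rFGF1WT 2 were higher and 2 lower past the threshold, beside 3.26% and 2.94% of all loci. After rFGF1ΔHBS 1 was higher and 2 lower, beside 3.37% and 2.89%. Between the pretreatments 1 was higher and 1 lower, beside 0.294% and 0.256%.

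Of 15 tested genes listed for TOP mRNA and mTORC1 control, 2 fell and 0 rose in each pretreated group against HG. Beside this, 2.94% of all loci were lower for rFGF1WT and 2.89% for rFGF1ΔHBS. Between the pretreatments 0 passed, beside 0.549% of all loci. The 2 genes, Eef2k and Pdcd4, encode targets of S6 kinase rather than parts of mTORC1 or regulators of TOP mRNAs. Eef2k, the kinase that halts elongation by phosphorylating Eef2, had 8.47 and 8.21 FPKM in HG, 4.98 and 5.06 with rFGF1WT and 4.58 and 4.63 with rFGF1ΔHBS. Its HG libraries were well above the other 4, with log2 fold changes of −0.63 ± 0.06 and −0.74 ± 0.06 (SE) and limma adjusted p of 0.0159 and 0.0140. Pdcd4, an inhibitor of the helicase Eif4a1 that S6 kinase marks for destruction, had 23.9 and 25.6 FPKM in HG, 10.8 and 14.5 with rFGF1WT and 12.9 and 12.5 with rFGF1ΔHBS. Its log2 fold changes were −0.93 ± 0.15 and −0.91 ± 0.15 (SE), with limma adjusted p of 0.0443 and 0.0455. Both comparisons use the same HG libraries.

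Of 6 tested genes listed as ribosomal protein chaperones, 0 passed the threshold after rFGF1WT, beside 6.19% of all loci. After rFGF1ΔHBS 1 fell, beside 2.89% of all loci. This was Aar2, which is known from the assembly of the spliceosome rather than of the ribosome. Aar2 had 7.02 and 7.89 FPKM in HG, 7.42 and 7.21 with rFGF1WT and 3.07 and 3.33 with rFGF1ΔHBS, with the rFGF1ΔHBS libraries below the other 4. Its log2 fold change was −1.01 ± 0.08 (SE) against HG and −0.99 ± 0.08 against rFGF1WT, with limma adjusted p of 0.0150 and 0.0387.

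The members are short and abundant, and other loci of that kind were set beside them. The 570 other loci with a transcript length of up to 775 bases, the upper quartile of the members, and a mean of at least 20 FPKM had median log2 fold changes of 0.026, −0.007 and −0.015 in the 3 comparisons. The lowest quartile of other loci by transcript length had −0.021, −0.029 and −0.003, and the highest by level 0.007, −0.001 and −0.002. The medians of the members, −0.035, −0.112 and −0.079, were below these. For rFGF1WT the median of all loci, −0.040, was lower still, and the sign of the members' median was not stable.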

How the data were processed

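RNA-Seq was analysed in 6 libraries of MPCs, grouped by their GEO labels. The authors made paired-end libraries from poly(A) RNA and deposited 1 table of FPKM, for whose summary their methods name edgeR; the submitters' processing notes list Bowtie 0.12.2, HISAT2 2.0, StringTie 1.3.0 and the build mm8, with no role. The deposited FPKM hold no counts, and depth is unknown. Steps among low values (173 to 212 loci a library) gave depths of 0.973 to 1.01 relative to HG library 1. Only ratios close to equal depth were searched, so a larger difference in depth could not have been seen. With 2 libraries a group, 3 residual degrees of freedom are left. How shared fragments and strand were treated is not given in the sources used here.

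With limma 3.58.1 in R 4.3.3, log2(FPKM + 1) was fitted (lmFit, contrasts, eBayes with trend) over all 6 libraries and the 10562 loci with a mean of at least 1 FPKM, with Benjamini-Hochberg adjustment over all of them and a threshold of 0.05. On simulated data for rFGF1WT against HG, 138 of 200 changed loci among 10562 were called (69%), with 10 false calls. This share is for the 200 loci together. The share called at fold changes as small as those of most members was not tested. Copies were found with blastn 2.17.0 against GENCODE M21 transcripts (GRCm38); the table holds no coordinates. Tables and plots used Python 3.11.15, pandas 2.3.3 and matplotlib 3.10.9.

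Replicate numbers did not pair the libraries, since the correlations of same-numbered deviations were −0.021, 0.098 and −0.047. Members and lists were chosen with earlier results of these data known. Results of some genes are not reported here. Named members were the extremes in level and in fold change of each comparison, those next to the 1 FPKM limit, and the P stalk, 5S particle, Rps6 and paralog lists; members with the lowest p, Rps7, Rpl6 and the copies were named after their values were seen. Alternatives were another pseudocount (0.1), no filter or one at 5 FPKM, median-ratio scaling, quantile normalization, FPKM rescaled to a common sum, only loci above 0 in every library, only the 4 libraries compared, a replicate block, each library left out, and only canonical members. After seeing the data, copies summed with their member and members without Rplp1, Rpl41 and Rpl6l were added.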

Additional observations from a re-analysis of the deposited data

Results flagged for a closer look

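For 5 members both rFGF1WT libraries moved one way from both HG libraries and both rFGF1ΔHBS libraries the other way, which was not tested as a pattern. These 5 are 6.41% of the members, beside 1.48% of all loci tested. The log2 fold changes against HG were 1.13 for rFGF1WT and −0.91 for rFGF1ΔHBS in Rplp1, 0.108 and −0.0616 in Rpsa, 0.0898 and −0.0735 in Rps7, 0.165 and −0.0287 in Rps24, and 0.0611 and −0.0559 in Rpl35. The limma fit of rFGF1ΔHBS against rFGF1WT gave these 5 adjusted p from 0.506 to 0.905. Both effects are taken against the same HG libraries, and in Rplp1 these lay 2.98-fold apart. With the FPKM of copies added to their member, the pattern was lost in Rpsa, Rps7 and Rps24 and stayed in Rplp1. Rps7 then had 165 and 164 FPKM in HG and 147 and 171 with rFGF1WT. Rpsa had 476 and 403 FPKM in HG and 456 and 417 with rFGF1WT. Rpl35 had no such copy.

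Copy loci, which lie outside the members, were listed at 0 in both HG libraries and at 1 FPKM or more in both libraries of a pretreated group in several cases. With rFGF1WT these included Rps12-ps3 (519 and 591 FPKM) and Rpl31-ps9 (4.01 and 4.75 FPKM). With rFGF1ΔHBS they included Rpl17-ps10 (65.2 and 62.2 FPKM), Gm10335, a copy of Rpl23a (21.2 and 19.8 FPKM), Gm5451, a copy of Rpl9 (4.96 and 5.14 FPKM), and Gm14165, a copy of Rplp0 (2.83 and 2.09 FPKM). The reverse occurred too. Gm15710, a copy of Rpl13 (95.6 and 98.0 FPKM in HG), Gm10020, a copy of Rpl15 (24.0 and 23.3 FPKM), and Gm9794, a copy of Rpl23 (29.5 and 22.4 FPKM), were listed at 0 in both rFGF1WT libraries. Gm9493, a copy of Rps7 (28.3 and 24.4 FPKM in HG), and Gm17828, a copy of Rpl7a (4.11 and 5.56 FPKM), were listed at 0 in both rFGF1ΔHBS libraries. Of the 72 copy loci with a mean of at least 1 FPKM, 40 were at 0 in a library, also within groups, and what part of these values belongs to the member's own mRNA was not tested.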

How the results depend on the processing

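Under the alternatives that kept 2 libraries a group, the count of members past the threshold was 0 in all 3 comparisons, with 1 exception. It was 1 (Rpl13) for rFGF1WT against HG when copies were summed with their member, an alternative added after seeing the data. Some of these fits called few loci of any kind. The replicate block called 0.388%, 0.369% and 0.0568% of all loci in the 3 comparisons. Fits of only the 4 libraries compared called 1.61%, 1.79% and 0.436%. A count of 0 members in these fits therefore says little about the members. Replicate numbers did not pair the libraries. Fits without 1 library leave 1 library in a group and are read by their effect sizes only. The median log2 fold change of the members ranged from −0.077 to 0.017 for rFGF1WT against HG over the fits without 1 library, from −0.162 to −0.058 for rFGF1ΔHBS against HG and from −0.109 to −0.033 between the pretreatments. Over the other alternatives it ranged from −0.085 (quantile normalization) to 0.006 (median-ratio scaling), from −0.132 to −0.077 and from −0.085 to −0.056, so that the sign for rFGF1WT depended on the scaling. Members above 0 with rFGF1ΔHBS numbered 22 with median-ratio scaling and 9 with quantile normalization. With copies summed, Rpl29 changed sign, to −0.00283 for rFGF1WT and −0.0979 for rFGF1ΔHBS. Without 1 library, for rFGF1ΔHBS against HG, Rpl29 ranged from −0.111 to 0.398, with −0.0748 without HG library 2, and Rpl39 from −0.0594 to 0.273, with −0.00419 without rFGF1ΔHBS library 1. With 2 libraries a group, the median half-width of the 95% intervals was about 0.24 on the log2 scale, before any adjustment over loci. Differences smaller than this were not detectable for most members. Larger ones could miss the threshold too: Rps27, at −0.34 after rFGF1WT, had an adjusted p of 0.126 by limma.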
